A study of Mus musculus with 19 samples.

Results

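The first postnatal week in the wild-type mouse heart was read from 8 heart RNA-seq libraries, 3 of postnatal day 1 (P1) and 5 of postnatal day 7 (P7). The members are all genes with 1 TPM or more in at least 3 of these 8 libraries, which were 14047 of the 56066 genes in the authors' table. TPM is the share of a library's transcripts that a gene takes once its length is accounted for. The whole series holds 19 libraries and also has wild-type hearts of P21 and hearts with a conditional knockout of PDK1 (cKO) at P7 and P21. All animals compared here are labelled wild type, with no allele, agent or strain stated for them, and the labels name the tissue only as heart. The labels of the youngest libraries give P1, whereas the text of the series names P0. The promoter that drives the recombinase of the cKO was not given in the sources used here, and the cKO libraries entered only the estimate of the spread.

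In the days after birth the rodent heart passes from a fetal state, which burns mainly glucose and lactate in low oxygen and grows by cell division, to one that burns fatty acids from milk in high oxygen and grows mainly by enlargement of its muscle cells. Cardiomyocytes replace fetal isoforms of contractile proteins, build up mitochondria and sarcoplasmic reticulum, and leave the cell cycle, often after a last round of DNA synthesis without division that leaves them with more than 1 nucleus. Fibroblasts, vessels and resident immune cells expand over the same period.

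The P1 libraries are numbered 1, 2 and 3 and the P7 libraries 1, 3, 72, 76 and 77, and values are given in that order throughout. P7 libraries 1 and 3 and all P1 libraries have letter-coded titles, and P7 libraries 72, 76 and 77 have plain numbers. What the title style stands for is not stated, and it was a term of the model. Between 13364 and 13797 genes reached 1 TPM in a library, mitochondrial transcripts took 13.7 to 17.9% of TPM at P1 and 17.2 to 19.3% at P7, and haemoglobin transcripts 0.381 to 0.83% and 0.653 to 0.996%. TPM values keep no read counts, so the depth of each library is unknown. Median-ratio size factors, which compare the middle gene between libraries, were 1.1 to 1.24 at P1 and 1.06 to 1.23 at P7. In the wild-type P21 libraries they were 0.707 to 0.829, so a middle gene had lower TPM there through the make-up of the library. P21 levels in the text are TPM without this scaling and were not tested against P1 or P7. The labels do not say that libraries came from separate animals, so p-values measure only the spread between these libraries.

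Some libraries stood apart. P1 library 3 had a correlation across genes of log2 values of 0.974 and 0.973 with P1 libraries 1 and 2, which had 0.982 with each other, and of 0.956 to 0.965 with the P7 libraries. It was also the one library of the 8 with both Xist, the RNA of the inactive X chromosome of females, and Y-linked transcripts. The labels do not say whether it holds RNA of more than 1 animal or of mixed libraries, and its values as a P1 library carry that limit. Xist stood at 39.3, 34.5 and 18.4 TPM at P1 and at 0.06, 58.5, 0.06, 47.5 and 0.02 TPM at P7. Ddx3y, a Y-linked gene, stood at 0, 0 and 3.77 TPM at P1 and at 18.5, 0.01, 14.2, 0 and 15.5 TPM at P7. P1 libraries 1 and 2 and P7 libraries 3 and 76 thus carried the female pattern and P7 libraries 1, 72 and 77 the male one, so the sexes were not balanced between the ages. P1 library 2 had more transcripts of atrial muscle than the other P1 libraries: Myl7 stood at 132, 637 and 174 TPM at P1 and at 138, 40.3, 93.1, 117 and 247 TPM at P7, and this gene encodes the atrial light chain of myosin. The part that sex, atrial tissue or P1 library 3 had in each difference was not tested, and values without P1 library 3 are given beside the results that rest on it.

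Across all genes tested, 4225 of 14047 passed an adjusted p of 0.05 between P7 and P1 (30.1%), 2034 of them higher (14.5%) and 2191 lower (15.6%) at P7. The test was limma's moderated test on log2(TPM + 1) with Benjamini-Hochberg adjustment, and a gene is called, or said to have risen or fallen, where it passed. Log2 changes below are on this scale, which understates the change of genes with low TPM, and are given with their standard error (SE). They are adjusted for title style, and the wild-type P21 libraries, which have both styles, also set that term. All P1 titles are letter-coded, so the changes lean to the letter-coded P7 libraries. A change can therefore differ from the difference of the TPM values listed. Every P7 library lay above every P1 library for 1965 genes (14%) and below for 2516 (17.9%). The median change over all genes was -0.01, and 235 genes rose and 266 fell by more than 2-fold on this scale. With the letter-coded P7 libraries alone against P1, 695 genes rose and 632 fell. With the libraries under 0.1 TPM of the Y-linked gene Ddx3y alone (P1 libraries 1 and 2, P7 libraries 3 and 76), 1185 rose and 1887 fell. Within P7, 43 genes (0.306%) differed between the title styles. In bulk tissue, fewer cells of a type and less RNA per cell cannot be told apart.

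**Figure D1:**
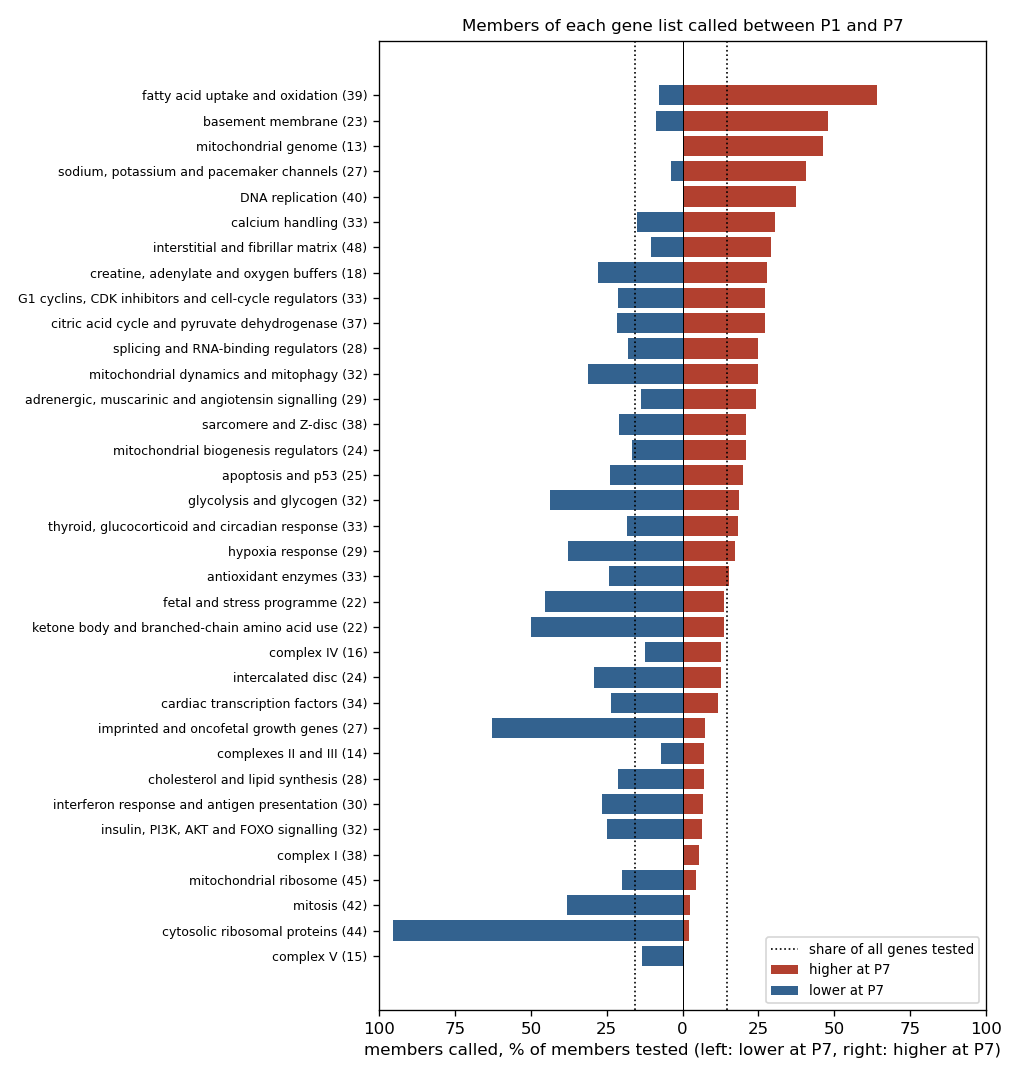
Share of the tested members of each gene list called higher (red, right) or lower (blue, left) at P7 than at P1, in percent of members tested, with the number tested in brackets. Dotted lines mark the shares over all 14047 genes, 14.5% higher and 15.6% lower. Cytosolic ribosomal proteins lie farthest to the left (42 of 44 lower) and fatty acid genes farthest to the right (25 of 39 higher).

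The 12 genes with the largest rise, among genes of at least 10 TPM whose P7 libraries all lay above the P1 libraries, included Strit1, Ucp3, Fbp2, Tuba8, Rxrg, Mapt, Scgb1c1, Plin5, Lrtm1, Trim72 and Angptl4. Strit1 (chr3:63481112-63483879, minus strand), which encodes a short peptide of the sarcoplasmic reticulum, was listed at 0 in all 3 P1 libraries and stood at 5.77, 14.5, 87.7, 37.4 and 32.5 TPM at P7. The P7 libraries thus spanned a wide range, and the 4 wild-type P21 libraries held 36.3 to 162 TPM. Rxrg stood at 1.03, 0.42 and 5.65 TPM at P1 and at 11.5, 15.4, 17.8, 15.01 and 15.97 TPM at P7 (log2 change 2.45 ± 0.37, adjusted p = 0.00019). Rxrg, a retinoid X receptor (chr1:167598384-167639623, plus strand), was lowest in P1 libraries 1 and 2, and P1 library 3 lay between them and P7. At P21 it was at 35.2 to 39.98 TPM. Fbp2 stood at 1.91, 0.41 and 9.51 TPM at P1 and at 21.5, 29.4, 16.3, 22.1 and 20.9 TPM at P7 (log2 change 2.82 ± 0.49, adjusted p = 0.00059), and it encodes the muscle form of fructose bisphosphatase. Tuba8, an alpha tubulin, stood at 1.72, 1.65 and 13.2 TPM at P1 and at 31.8, 20.1, 48.03, 29.4 and 41.4 TPM at P7 (log2 change 2.54 ± 0.45, adjusted p = 0.00069). Trim72 stood at 13.5, 9.8 and 36.7 TPM at P1 and at 74.7, 78.02, 90.4, 76.9 and 76.8 TPM at P7 (log2 change 2.14 ± 0.31, adjusted p = 0.00015). Trim72 (MG53) takes part in the repair of the muscle cell membrane. Mapt, the microtubule protein tau, stood at 0.5, 0.54 and 3.28 TPM at P1 and at 11.2, 10.4, 10.4, 9.44 and 13.03 TPM at P7 (log2 change 2.43 ± 0.31, adjusted p = 4.6e-05). Scgb1c1 and Lrtm1 rose by 2.31 and 2.19 on the log2 scale. In each of these genes except Strit1, P1 library 3 was the P1 library nearest to P7. Without it the log2 change was 3.1 (adjusted p = 1.7e-08) for Rxrg, 3.34 (adjusted p = 1e-07) for Tuba8 and 2.67 (adjusted p = 1e-07) for Trim72. With the letter-coded P7 libraries alone the adjusted p was 0.057 for Rxrg, 0.063 for Fbp2, 0.079 for Tuba8 and 0.099 for Scgb1c1. It was 0.065 for Plin5 and 0.068 for Angptl4, whereas Strit1, Ucp3, Trim72, Mapt and Lrtm1 still passed. With the numbered ones alone it was 0.066 for Scgb1c1.

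The 12 genes with the largest fall by the same rule were Mt2, Hif3a, Dlk1, Myl4, Hey2, Nppa, Bex4, Klf15, Proser2, Gng2, Cnn1 and Abat. Mt2 stood at 239, 326 and 294 TPM at P1 and at 16.4, 15.5, 19.9, 13.4 and 12.5 TPM at P7 (log2 change -4.26 ± 0.37, adjusted p = 2.4e-06). Mt2 (chr8:94172664-94173568, plus strand) encodes a metallothionein, a small protein that binds zinc and copper and whose gene responds to metals and glucocorticoids. All 5 P7 libraries lay far below all 3 P1 libraries, and the P21 libraries held 28.9 to 77.03 TPM. Hif3a stood at 13.1, 21.3 and 12.2 TPM at P1 and at 0.48, 0.59, 0.97, 0.3 and 0.44 TPM at P7 (log2 change -3.38 ± 0.21, adjusted p = 1.1e-07). Hif3a (chr7:17031507-17062427, minus strand), a member of the family of hypoxia-inducible factors, was under 1 TPM in every P7 library. Klf15 stood at 20.4, 30.1 and 27.1 TPM at P1 and at 4.98, 4.97, 6.51, 5.22 and 6.48 TPM at P7 (log2 change -2.23 ± 0.18, adjusted p = 1.1e-06). Klf15 is a transcription factor that glucocorticoids induce in the heart, and the P21 libraries were higher again, at 12.1 to 19.3 TPM. Hey2, a Notch-dependent repressor of ventricular muscle, stood at 61.2, 62.1 and 34.2 TPM at P1 and at 8.1, 10.1, 5.16, 5.49 and 6.08 TPM at P7 (log2 change -2.46 ± 0.26, adjusted p = 1.3e-05). Bex4 stood at 76.3, 87.7 and 64.7 TPM at P1 and at 17.5, 10.2, 11.98, 11.9 and 17.5 TPM at P7 (log2 change -2.41 ± 0.21, adjusted p = 2.4e-06). Gng2, a gamma subunit of G proteins, stood at 36.9, 49.1 and 37.01 TPM at P1 and at 9.32, 6.78, 7.34, 4.68 and 13.8 TPM at P7 (log2 change -2.0 ± 0.31, adjusted p = 0.00028). Abat, the enzyme that breaks down GABA, stood at 9.83, 15.2 and 6.86 TPM at P1 and at 1.78, 1.99, 1.5, 1.89 and 2.28 TPM at P7 (log2 change -1.89 ± 0.21, adjusted p = 2e-05). Proser2 changed by -2.04 ± 0.24 (SE) with an adjusted p of 2.9e-05, and its P7 values of 2.99, 4.11, 4.9, 4.12 and 2.99 TPM lay below all P1 values.

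**Figure D2:**
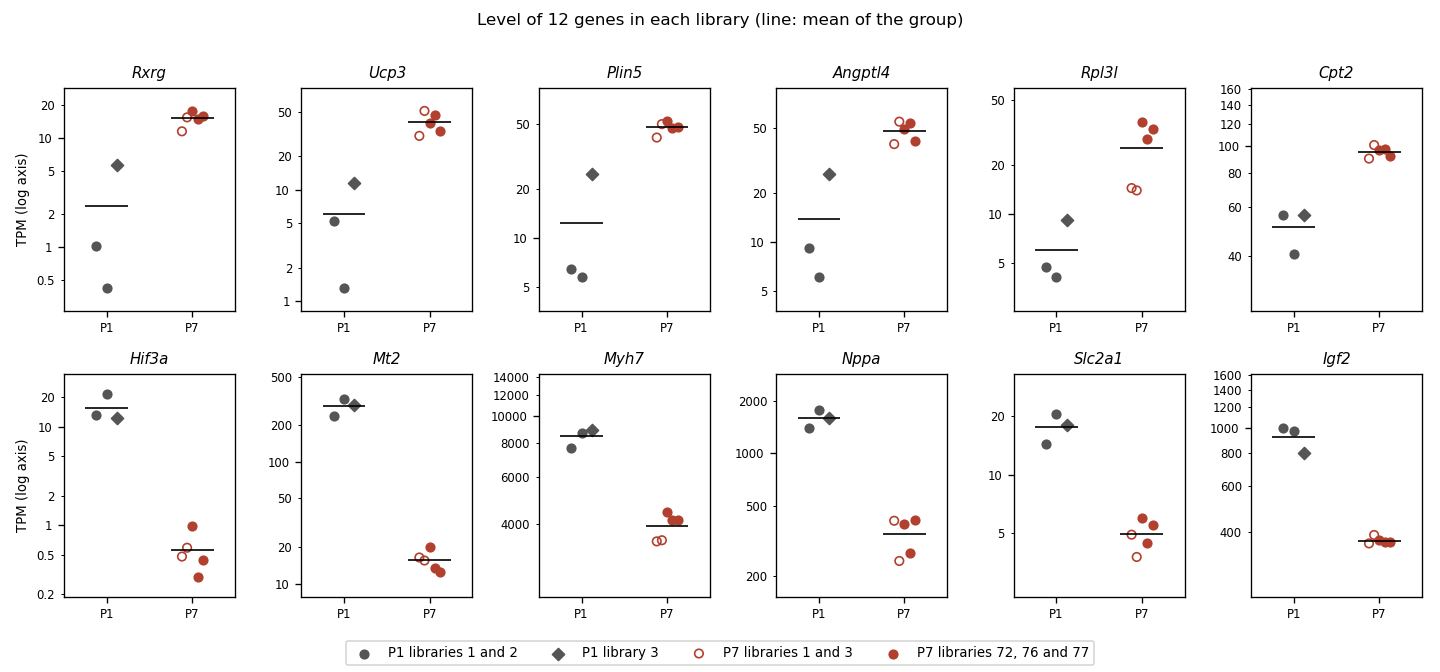
TPM (log axis) of 12 genes in each library at P1 (grey) and P7 (red), with P1 library 3 as a diamond, the letter-coded P7 libraries as open circles and a line at the mean of each group. In the 6 genes of the top row all P7 libraries lie above P1, and in the 6 of the bottom row, among them Hif3a and Mt2, all lie below. In Rxrg, Ucp3, Plin5 and Angptl4 the diamond lies between the other P1 libraries and P7.

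Contractile proteins changed by isoform rather than together. Of the list of sarcomere and Z-disc genes, 8 of 38 members tested rose and 8 fell, with a median change of -0.02. The summed level of the list was 83473 to 97055 TPM at P1 and 80712 to 89874 TPM at P7. Myh7 stood at 7676, 8707 and 8932 TPM at P1 and at 3459, 3493, 4451, 4147 and 4131 TPM at P7 (log2 change -1.23 ± 0.07, adjusted p = 4.1e-08). Myh7 is the slow fetal myosin heavy chain of the rodent ventricle, and every P7 library lay below every P1 library. Myh6 stood at 4997, 5612 and 5806 TPM at P1 and at 6799, 6691, 8652, 7737 and 7830.3 TPM at P7 (log2 change 0.36 ± 0.07, adjusted p = 0.002). Myh6, the fast heavy chain of the adult rodent heart, was thus above every P1 value in each P7 library, and both genes remained among the most abundant. The change of Myh6 was 0.1 (adjusted p = 0.34) under quantile normalization, which gives all libraries 1 distribution of values, and its adjusted p was 0.066 with the 8 libraries alone and both terms and 0.19 with the letter-coded P7 libraries alone. Tnni1, the slow skeletal troponin I of the fetal heart, stood at 2350.03, 2379 and 2057 TPM at P1 and at 1036, 1078, 702, 792 and 844 TPM at P7 (log2 change -1.27 ± 0.29, adjusted p = 0.0038). The P21 libraries held only 0.49 to 2.64 TPM. Its cardiac partner Tnni3 did not pass (log2 change 0.08 ± 0.09, adjusted p = 0.54), with 3648 to 4812 TPM at P1 and 4129 to 4632 TPM at P7. Without P1 library 3 the log2 change of Tnni3 was 0.21 (adjusted p = 0.024). Tnnt2, the cardiac troponin T, stood at 10249.9, 10817 and 11006 TPM at P1 and at 7152, 7677, 7283, 6969 and 7372 TPM at P7 (log2 change -0.56 ± 0.07, adjusted p = 3.4e-05). Cmya5, a large Z-disc and costamere protein, rose from 11.2 ± 0.97 TPM at P1 to 19.01 ± 2.02 TPM at P7 (SD, n = 3 and 5). Actc1, Acta1, Myl2 and Tnnt1 did not pass, with adjusted p of 0.16, 0.5, 0.51 and 0.91. Acta1 changed by 1.0 (adjusted p = 0.0145) with the numbered P7 libraries alone and by 0.12 (adjusted p = 0.85) with the letter-coded ones alone. Actc1 changed by -0.29 (adjusted p = 0.0096) under quantile normalization. The number of sarcomere genes that rose was 4 without P1 library 2 and 5 without P7 library 1, and the number that fell was 5 without P1 library 2 or P7 library 3.

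The natriuretic peptides fell with the fetal programme. Of the list of fetal and stress genes, 3 of 22 members tested rose and 10 fell, with a median change of -0.31. Nppa stood at 1396, 1767 and 1583 TPM at P1 and at 413, 243, 393, 269.6 and 416 TPM at P7 (log2 change -2.44 ± 0.3, adjusted p = 3.5e-05); its adjusted p was 0.096 when P21 library 63, whose labels disagree, entered the fit as cKO. Nppb stood at 620.4, 1304 and 1082 TPM at P1 and at 429.6, 209, 401, 358 and 475 TPM at P7 (log2 change -1.82 ± 0.3, adjusted p = 0.00038). Both encode secreted peptides that lower blood volume, and their P7 libraries lay wholly below the P1 libraries. Myl4, the light chain of atrial and fetal ventricular myosin, stood at 347, 672 and 273 TPM at P1 and at 79.1, 33.6, 70.3, 78.1 and 162 TPM at P7 (log2 change -2.59 ± 0.81, adjusted p = 0.024); its adjusted p was 0.092 without P1 library 2 and 0.12 without P7 library 3. Of 7 atrial marker genes 4 fell (Nppa, Bmp10, Stard10 and Myl4) and none rose, and their summed level was 1895 to 3127 TPM at P1 and 327 to 849.8 TPM at P7. Bmp10, a growth factor of the atrial wall, stood at 5.29, 10.1 and 3.67 TPM at P1 and at 0.13, 0.01, 0.06, 0.01 and 1.16 TPM at P7 (log2 change -2.6 ± 0.54, adjusted p = 0.0021). Sln stood at 1.18, 14.99 and 1.43 TPM at P1 and at 2.51, 1.01, 2.57, 2.7 and 6.2 TPM at P7, and this gene encodes sarcolipin, a peptide of the atrial calcium pump (log2 change -0.44 ± 0.83, adjusted p = 0.73). P1 library 2 was the highest library in Myl4, Myl7, Bmp10, Nppa and Sln, and the part of atrial tissue in the fall of Nppa and Myl4 was not tested.

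Genes of fatty acid uptake and oxidation rose as a group. Of this list, 25 of 39 members tested rose and 3 fell, against 14.5% and 15.6% of all genes, with a median change of 0.52. The summed level was 9903 to 13628 TPM at P1 and 18083 to 19524 TPM at P7. Plin5, Angptl4 and Fabp3, of uptake and storage, were among the members that rose. Plin5, the coat protein of lipid droplets in oxidative tissue, stood at 6.43, 5.7 and 24.8 TPM at P1 and at 41.3, 49.9, 51.8, 46.9 and 48.2 TPM at P7 (log2 change 2.21 ± 0.35, adjusted p = 0.00027). Angptl4, a secreted inhibitor of lipoprotein lipase, stood at 9.25, 6.09 and 25.96 TPM at P1 and at 39.6, 54.4, 48.95, 53.4 and 41.3 TPM at P7 (log2 change 1.94 ± 0.45, adjusted p = 0.0043). At P21, Angptl4 was at 1.68 to 7.66 TPM, below its P7 level. Fabp3, the fatty acid carrier of the heart muscle cell and one of its most abundant transcripts, stood at 3382, 2886 and 5218 TPM at P1 and at 7865, 7693, 8319.7, 8314 and 7602 TPM at P7 (log2 change 1.05 ± 0.14, adjusted p = 9e-05). Cd36, Slc27a1 and Acsl1, which take up and activate fatty acids, also rose.

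Cpt1b, Cpt2 and Slc25a20, which bring fatty acids into mitochondria, rose as well. Cpt1b, the muscle form of carnitine palmitoyltransferase 1, stood at 270.1, 244 and 247 TPM at P1 and at 349, 354, 351, 341 and 333 TPM at P7 (log2 change 0.45 ± 0.07, adjusted p = 0.00026). Cpt2, its partner on the inner membrane, stood at 56.4, 40.9 and 56.1 TPM at P1 and at 89.8, 100.5, 96.5, 96.99 and 91.8 TPM at P7 (log2 change 0.92 ± 0.1, adjusted p = 1.4e-05). Slc25a20, the carnitine carrier between them, stood at 86.8, 73.8 and 86.5 TPM at P1 and at 140.2, 136, 145, 140.1 and 123 TPM at P7 (log2 change 0.72 ± 0.09, adjusted p = 5.4e-05). In all 3 genes every P7 library lay above every P1 library. Cpt1a, the liver form, did not pass (log2 change 0.53 ± 0.21, adjusted p = 0.064), and stood at 45.98, 41.3 and 23.1 TPM at P1 and 48.8, 55.9, 39.9, 45.6 and 43.3 TPM at P7. Its adjusted p was 0.042 under median-ratio scaling, 0.028 under quantile normalization and 0.048 with P21 library 63 fitted as wild type. Its log2 change was 0.72 (adjusted p = 0.022) without P1 library 1 and 0.24 (adjusted p = 0.28) without P1 library 3. Hadha, the long-chain subunit of the trifunctional protein, stood at 513, 389 and 472 TPM at P1 and at 761, 819, 735, 777 and 712 TPM at P7 (log2 change 0.73 ± 0.09, adjusted p = 2.7e-05). Etfdh, which passes electrons from fatty acid oxidation to ubiquinone, stood at 219.9, 186 and 196 TPM at P1 and at 314, 322, 324, 304 and 289 TPM at P7 (log2 change 0.67 ± 0.06, adjusted p = 6.2e-06). Acadvl, Acadm, Acadl, Hadhb, Acaa2, Decr1 and Ech1 rose too. Ucp3, an inner membrane carrier found in muscle with high fatty acid use, stood at 5.27, 1.31 and 11.5 TPM at P1 and at 30.6, 51.2, 40.1, 47.2 and 33.9 TPM at P7 (log2 change 2.93 ± 0.47, adjusted p = 0.00032). The 3 members that fell were Echs1, which hydrates short-chain intermediates, Pnpla2, the lipase of lipid droplets, and Acsl3. Hadha, Fabp3 and Cpt1b stood at 404 to 459.7 TPM, 3363 to 3681 TPM and 177 to 191 TPM in the P21 libraries. These are TPM without scaling, and a fall from P7 to P21 was not tested. Of the list, 15 rose with the letter-coded P7 libraries alone.

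Genes of glycolysis moved the other way. Of 32 tested, 14 fell and 6 rose, with a median change of -0.19 and a summed level of 15066 to 15599 TPM at P1 and 11246 to 13416 TPM at P7. Slc2a1, the glucose transporter of the fetal heart, stood at 14.3, 20.5 and 17.97 TPM at P1 and at 4.92, 3.78, 6.01, 4.47 and 5.52 TPM at P7 (log2 change -1.78 ± 0.19, adjusted p = 1.3e-05). Slc2a4, the insulin-responsive transporter, did not pass. It stood at 62.99, 78.8 and 76.8 TPM at P1 and at 70.4, 65.6, 92.2, 84.99 and 86.1 TPM at P7 (log2 change -0.06 ± 0.09, adjusted p = 0.68). Its log2 change was -0.09 with the letter-coded P7 libraries alone and 0.27 with the numbered ones alone. Gpi1, the isomerase after the hexokinases, stood at 439, 463 and 507 TPM at P1 and at 309, 298, 317, 312 and 312 TPM at P7 (log2 change -0.65 ± 0.07, adjusted p = 8.4e-06). Aldoc, an aldolase of fetal tissue and brain, stood at 8.25, 8.46 and 6.51 TPM at P1 and at 2.04, 1.53, 0.84, 1.15 and 1.48 TPM at P7 (log2 change -1.75 ± 0.18, adjusted p = 9.5e-06). Gapdh stood at 4859, 4888 and 4555 TPM at P1 and at 3074, 2761, 3745, 3513 and 3186 TPM at P7 (log2 change -0.64 ± 0.08, adjusted p = 5.6e-05). In Slc2a1, Gpi1, Aldoc and Gapdh all P7 libraries lay below all P1 libraries. Hk1, Pgk1, Tpi1, Aldoa, Eno1, Pfkp and Ldhb fell too. Ldha, lactate dehydrogenase A, stood at 779.9, 806 and 921 TPM at P1 and at 764, 678, 766, 754 and 754 TPM at P7 (log2 change -0.23 ± 0.08, adjusted p = 0.039); its adjusted p was 0.055 without P1 library 2, 0.13 without P1 library 3, 0.15 without P7 library 3, 0.054 without P7 library 76 and 0.054 without P7 library 77, and its change was -0.01 (adjusted p = 0.89) under quantile normalization. The members that rose were Pfkm, Pfkl, Hk2, Eno3, Phkg1 and Pfkfb2, of which Pfkm, Eno3 and Phkg1 are muscle forms. Pfkm stood at 224, 207 and 236 TPM at P1 and at 279.7, 283, 303, 287 and 294 TPM at P7 (log2 change 0.34 ± 0.07, adjusted p = 0.0015). Pfkl rose by 0.34 ± 0.09 (SE) with an adjusted p of 0.011, and of 0.057 without P1 library 2. The number that rose was 3 without P1 library 2.

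**Figure D3:**
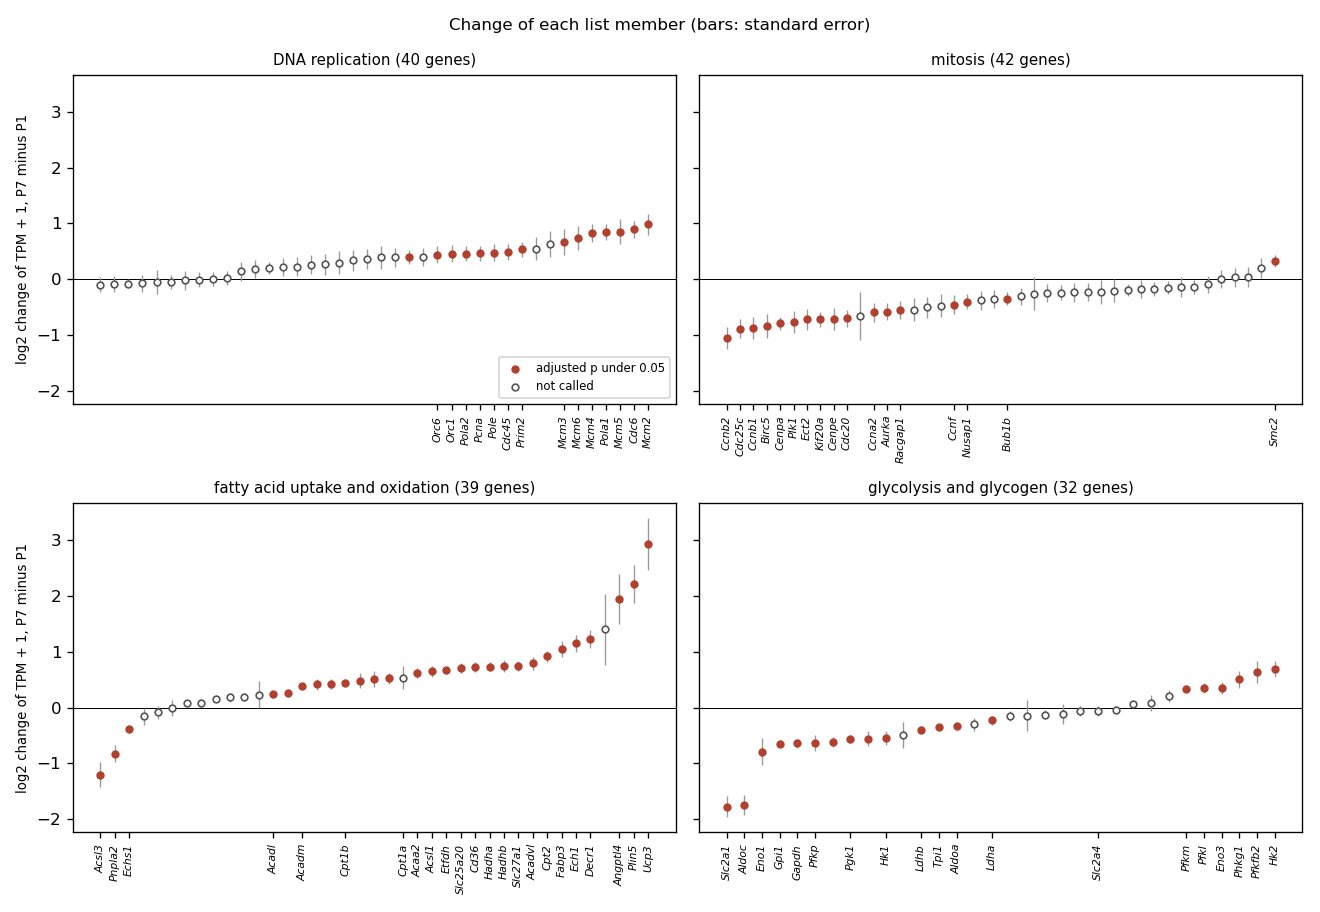
Log2 change from P1 to P7 of each tested member of 4 gene lists, with its standard error; filled red points passed an adjusted p of 0.05 and open points did not, and members named in the text carry their names. DNA replication genes (15 of 40 called) and fatty acid genes lie mainly above 0, and mitosis genes (16 of 42 called lower) and glycolysis genes mainly below.

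Enzymes of the citric acid cycle and of pyruvate use were called in both directions. Of 37 genes tested, 10 rose and 8 fell, with a median of 0.03. The balance depended on the scaling: 19 rose and 8 fell under quantile normalization, and 14 rose and 6 fell with mitochondrial and haemoglobin transcripts removed. Ogdh stood at 271, 268 and 278 TPM at P1 and at 442, 414, 582, 497 and 508 TPM at P7 (log2 change 0.72 ± 0.08, adjusted p = 2.6e-05). It encodes a subunit of oxoglutarate dehydrogenase, and Dlst and Dld of the same complex also rose. Pdha1, Dlat, Mpc1 and Mpc2, of pyruvate import and dehydrogenation, rose as well. Me1, the cytosolic malic enzyme, stood at 16.5, 14.4 and 16.7 TPM at P1 and at 30.5, 34.1, 38.5, 36.96 and 30.4 TPM at P7 (log2 change 1.02 ± 0.12, adjusted p = 2.1e-05). Pdk3, a kinase that switches pyruvate dehydrogenase off, stood at 36.8, 35.3 and 28.03 TPM at P1 and at 12.1, 11.9, 11.8, 11.3 and 11.9 TPM at P7 (log2 change -1.37 ± 0.11, adjusted p = 1.7e-06). Pdk1, of the same family, stood at 62.02, 58.1 and 42.6 TPM at P1 and 41.9, 44.7, 36.1, 39.6 and 40.5 TPM at P7 (log2 change -0.38 ± 0.12, adjusted p = 0.028); its adjusted p was 0.12 without P1 library 1, 0.1 without P1 library 2 and 0.056 without P7 library 1. Pdpk1, the gene of the kinase that activates AKT and that is also called PDK1, did not pass (log2 change 0.12 ± 0.12, adjusted p = 0.48), with 8.19 to 12.1 TPM at P1 and 7.96 to 11.9 TPM at P7. Pcx, pyruvate carboxylase, stood at 7.11, 9.06 and 7.41 TPM at P1 and at 2.19, 1.63, 1.64, 2.13 and 2.19 TPM at P7 (log2 change -1.59 ± 0.13, adjusted p = 1.9e-06). Idh2, the mitochondrial isocitrate dehydrogenase that makes NADPH, stood at 1732, 1806 and 1725 TPM at P1 and at 1226, 1287, 1147, 1213 and 1223 TPM at P7 (log2 change -0.58 ± 0.08, adjusted p = 0.00013). In Pdk3, Pcx and Idh2 no P7 library reached the lowest P1 library.

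Genes of amino acid breakdown fell more often than they rose. Of 22 genes of ketone body and branched-chain amino acid use, 11 fell and 3 rose, with a median of -0.27. Bcat2, the mitochondrial branched-chain aminotransferase, stood at 52.2, 56.9 and 61.8 TPM at P1 and at 32.6, 30.7, 29.8, 30.9 and 29.1 TPM at P7 (log2 change -0.89 ± 0.09, adjusted p = 1.3e-05). Ivd, which acts on the leucine branch, stood at 82.1, 95.5 and 80.8 TPM at P1 and at 43.8, 50.1, 45.8, 48.9 and 45.5 TPM at P7 (log2 change -0.82 ± 0.11, adjusted p = 9.7e-05). Bckdha, a subunit of the branched-chain ketoacid dehydrogenase, stood at 66.8, 72.9 and 68.97 TPM at P1 and at 41.5, 50.7, 39.4, 44.6 and 49.6 TPM at P7 (log2 change -0.63 ± 0.09, adjusted p = 0.00017). Aldh6a1 stood at 56.8, 68.1 and 41.4 TPM at P1 and at 25.7, 28.5, 25, 24.7 and 25.4 TPM at P7 (log2 change -0.99 ± 0.14, adjusted p = 0.00013). In these 4 genes the age groups did not overlap, and the P21 libraries were higher again, with 80.1 to 107 TPM for Ivd and 93.5 to 109.8 TPM for Bckdha. Among the genes that rose, Acat1 stood at 159, 155 and 169.8 TPM at P1 and at 213, 201, 205, 197 and 189 TPM at P7 (log2 change 0.31 ± 0.06, adjusted p = 0.0012), and it encodes the mitochondrial acetoacetyl-CoA thiolase.

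The respiratory chain encoded in the nucleus showed few calls. Of 38 genes listed under complex I 2 rose (Ndufa4 and Ndufb10) and none fell, with a median of -0.01. Of 14 genes of complexes II and III 1 rose and 1 fell. Of 16 of complex IV 2 rose and 2 fell, and of 15 of complex V none rose and 2 fell. These counts rested on P1 library 3 and on the scaling. Without that library 13 genes of the complex I list, 3 of complexes II and III, 5 of complex IV and 6 of complex V rose. Under quantile normalization 16, 8, 5 and 6 rose in the same order. The complex I count was 1 without P1 library 1 or P1 library 2 or P7 library 1 or P7 library 72 and 13 without P1 library 3. Ndufa4 was counted in the complex I list and not under complex IV, although its product is a subunit of complex IV. It stood at 1143, 1155 and 1519 TPM at P1 and at 1643, 1538, 1613, 1597 and 1609.97 TPM at P7 (log2 change 0.33 ± 0.08, adjusted p = 0.0075). Ndufb10 stood at 563, 579 and 821 TPM at P1 and at 876, 768, 914, 792 and 792 TPM at P7 (log2 change 0.36 ± 0.12, adjusted p = 0.039); its adjusted p was 0.15 without P1 library 1, 0.15 without P1 library 2, 0.13 without P7 library 1 and 0.05 without P7 library 72. Ndufa5 stood at 449, 489 and 696 TPM at P1 and at 677, 626, 634, 664 and 648 TPM at P7; it did not pass with all libraries (log2 change 0.27 ± 0.11, adjusted p = 0.091), and its log2 change without P1 library 3 was 0.46 (adjusted p = 0.00011). In these genes P1 library 3 lay at or near the P7 level and P1 libraries 1 and 2 lay below it. Cycs, cytochrome c, stood at 133, 134 and 163 TPM at P1 and at 211, 183, 219.7, 200.3 and 201 TPM at P7 (log2 change 0.5 ± 0.09, adjusted p = 0.00064). Sdhb, a subunit of complex II, stood at 609, 638 and 736 TPM at P1 and at 571, 519, 603, 598 and 574 TPM at P7 (log2 change -0.23 ± 0.07, adjusted p = 0.029); its adjusted p was 0.1 without P1 library 3, 0.056 without P7 library 1 and 0.16 without P7 library 3, and its change was -0.03 (adjusted p = 0.69) under quantile normalization. The number of complex II and III genes that fell was 0 without P1 library 3 or P7 library 1 or P7 library 3 and 2 without P1 library 1.

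**Figure D4:**
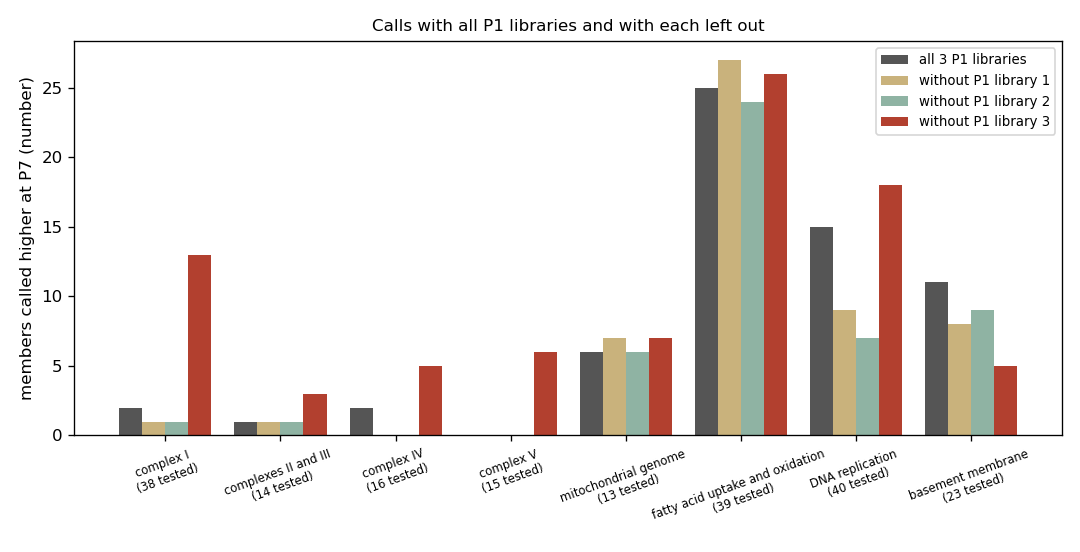
Number of members called higher at P7 in 8 gene lists with all 3 P1 libraries (grey) and with each P1 library left out in turn. The red bars, without P1 library 3, stand above the grey in complexes I to V (13 against 2 for complex I) and below it for the basement membrane (5 against 11).

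Among the isoforms of cytochrome oxidase subunits, complex IV, only Cox8a and Cox8b were called in opposite directions. The share of complex IV genes called was below the 30.1% of all genes, so a change of isoform was not shown for the complex as a whole. Cox6a1 stood at 1023, 1221 and 1109 TPM at P1 and at 602, 486, 685, 601 and 595 TPM at P7 (log2 change -1.02 ± 0.1, adjusted p = 9.5e-06). Cox8a stood at 1141, 1289.8 and 1149 TPM at P1 and at 728, 661, 736, 703 and 703 TPM at P7 (log2 change -0.77 ± 0.06, adjusted p = 1.1e-06). Both are the forms found in most tissues, and their P7 libraries lay wholly below P1. Cox8b stood at 738, 696 and 1152 TPM at P1 and at 1178, 1182, 1232, 1227 and 1304 TPM at P7 (log2 change 0.46 ± 0.13, adjusted p = 0.016); its adjusted p was 0.068 without P1 library 1, 0.084 without P1 library 2, 0.051 without P7 library 1 and 0.055 without P7 library 3. Cox7a1 stood at 569, 559.7 and 859 TPM at P1 and at 847, 882, 893, 863 and 852 TPM at P7 (log2 change 0.36 ± 0.12, adjusted p = 0.037); its adjusted p was 0.14 without P1 library 1, 0.16 without P1 library 2, 0.096 without P7 library 1 and 0.13 without P7 library 3. Both are the forms of heart and skeletal muscle, and without P1 library 3 they changed by 0.69 (adjusted p = 2.2e-06) and 0.56 (adjusted p = 2.8e-05). The muscle form Cox6a2 and the common form Cox7a2 did not pass, with adjusted p of 0.93 and 0.26. The count of complex IV genes that rose was 0 without P1 library 1 or P1 library 2 or P7 library 1 or P7 library 3 and 5 without P1 library 3. In complex V, Atp5b, the catalytic beta subunit, stood at 7232, 7491 and 6420.1 TPM at P1 and at 5509, 5875, 6304, 6139 and 5957 TPM at P7 (log2 change -0.28 ± 0.07, adjusted p = 0.0055). Atpif1, the inhibitor of the ATP synthase, stood at 812, 845 and 917 TPM at P1 and at 638, 653, 534, 619 and 632 TPM at P7 (log2 change -0.47 ± 0.09, adjusted p = 0.00096). Cox7a2l, an assembly factor named after its values were seen, was at 293, 275, 120.1, 126 and 121 TPM in the P7 libraries, with the letter-coded pair above the numbered libraries.

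Of the 13 genes of the mitochondrial genome tested, 6 rose and none fell, with a median of 0.36, and the summed level was 135464 to 176470.2 TPM at P1 and 170116 to 190444 TPM at P7. mt-Nd4 stood at 4632, 4053 and 5235 TPM at P1 and at 7072, 7688, 6574, 7028 and 6872 TPM at P7 (log2 change 0.67 ± 0.08, adjusted p = 3.6e-05). mt-Cytb stood at 3279, 3023 and 2122 TPM at P1 and at 4052, 4276, 4288, 4120.03 and 4079.8 TPM at P7 (log2 change 0.63 ± 0.12, adjusted p = 0.00096); its adjusted p was 0.077 under quantile normalization. mt-Co1 stood at 10046, 9400.03 and 10697 TPM at P1 and at 12509.7, 13573, 11808, 12089 and 12791 TPM at P7 (log2 change 0.35 ± 0.06, adjusted p = 0.00063). They encode subunits of complexes I, III and IV. The rise is a share of each library: under quantile normalization 4 rose and 1 fell.

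Genes of mitochondrial shape and turnover, the subject named in the title of the series, were called in both directions. Of 32 tested, 8 rose and 10 fell, with a median of 0.03. Those that rose were of fusion, fission and the inner membrane proteases (Mfn1, Mfn2, Opa1, Dnm1l, Mtfr1, Mtfp1, Oma1 and Yme1l1). Those that fell were mainly receptors and adaptors of mitophagy, the removal of mitochondria (Bnip3, Bnip3l, Fkbp8, Fundc2, Pink1, Sqstm1, Gabarapl1, Map1lc3b). Fis1, also a gene of fission, and Marchf5 fell with them. Bnip3 stood at 95.4, 133 and 120 TPM at P1 and at 57.5, 58.05, 66.4, 61.1 and 60.9 TPM at P7 (log2 change -0.91 ± 0.12, adjusted p = 5.9e-05). Sqstm1 stood at 234, 264 and 232 TPM at P1 and at 146, 155, 144, 152 and 143 TPM at P7 (log2 change -0.76 ± 0.1, adjusted p = 6.5e-05). Gabarapl1 stood at 46.7, 56.3 and 55.5 TPM at P1 and at 32.2, 29.8, 26.9, 36.7 and 32.1 TPM at P7 (log2 change -0.81 ± 0.13, adjusted p = 0.0003). Map1lc3b stood at 111, 127 and 123 TPM at P1 and at 82.8, 84.05, 71.6, 85.5 and 82.6 TPM at P7 (log2 change -0.59 ± 0.1, adjusted p = 0.00036). In the 4 genes, whose products tie mitochondria or ubiquitin to the autophagosome or form its membrane tags, the ages did not overlap. The number of the 32 that rose was 4 without P7 library 1 and 5 without P1 library 3, and it was 3 in the libraries under 0.1 TPM of Ddx3y. With the letter-coded P7 libraries alone 0 rose and 4 fell, and with the numbered ones alone 3 rose and 8 fell. Among 24 regulators of mitochondrial biogenesis 5 rose and 4 fell, a share called of 37.5% against 30.1% of all genes. Perm1, a muscle coactivator of oxidative genes, stood at 40.9, 39.6 and 37.7 TPM at P1 and at 60.3, 58.3, 76.2, 62.5 and 69.5 TPM at P7 (log2 change 0.6 ± 0.08, adjusted p = 6.1e-05). Ppargc1b, Nrip1 and Med1 rose and Polg2, Twnk and Rxra fell, and Esrra did not pass (log2 change 0.00 ± 0.08, adjusted p = 1). The number of regulators that rose was 3 without P1 library 3 or P7 library 3, and in the libraries under 0.1 TPM of Ddx3y 2 rose and 5 fell.

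The cell cycle genes moved apart by phase. Of 40 genes of DNA replication 15 rose and none fell, with a median of 0.38, whereas of 42 genes of mitosis 16 fell and 1 rose, with a median of -0.35. Summed levels were 626 to 786 TPM at P1 and 699 to 906 TPM at P7 for replication and 1309 to 1416 TPM at P1 and 814 to 1136 TPM at P7 for mitosis. The promoters of called members are shown because both groups are textbook targets of cell cycle factors: E2F proteins drive replication genes in late G1, and complexes that bind CCAAT boxes and the cell cycle homology element drive mitotic genes in G2. Sequences are the 150 bases before the start, 5′ to 3′ on the gene's strand, from RefSeq (GRCm38.p6). Capitals mark the CCAAT box (CCAAT), in the mitosis genes the cell cycle homology element (TTTGAA) and in the replication genes the E2F letters TTTCCCGC, TTTGGCGC, TTTCGCGC or TTTGCCGC, each on either strand. The first 3 genes fell and the last 3 rose, and they are called members of small p whose 150 bases held their group's letters. Not every such member is shown. Cdc25c and Kif20a had smaller p than Cdc20 and were left out, which does not show that they lack the letters.
Cenpa, chr5:30666736-30666885, plus strand: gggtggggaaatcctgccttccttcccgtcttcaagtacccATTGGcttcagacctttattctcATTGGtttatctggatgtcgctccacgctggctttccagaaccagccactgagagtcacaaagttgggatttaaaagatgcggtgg
Ccnb2, chr9:70421555-70421704, minus strand: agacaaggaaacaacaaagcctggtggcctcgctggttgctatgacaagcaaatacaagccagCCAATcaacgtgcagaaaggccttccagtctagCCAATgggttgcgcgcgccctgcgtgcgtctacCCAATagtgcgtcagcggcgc
Cdc20, chr4:118437344-118437493, minus strand: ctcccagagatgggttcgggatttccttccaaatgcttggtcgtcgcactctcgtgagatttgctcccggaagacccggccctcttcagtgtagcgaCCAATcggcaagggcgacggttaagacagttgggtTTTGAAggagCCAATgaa
Pola1, chrX:93632156-93632305, minus strand: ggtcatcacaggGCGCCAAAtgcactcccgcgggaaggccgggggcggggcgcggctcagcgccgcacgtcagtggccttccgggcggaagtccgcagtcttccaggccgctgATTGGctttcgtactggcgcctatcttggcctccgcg
Cdc6, chr11:98908001-98908150, plus strand: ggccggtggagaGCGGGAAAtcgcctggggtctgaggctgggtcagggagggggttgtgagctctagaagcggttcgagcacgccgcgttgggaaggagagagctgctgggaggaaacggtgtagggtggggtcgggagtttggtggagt
Mcm5, chr8:75109359-75109508, plus strand: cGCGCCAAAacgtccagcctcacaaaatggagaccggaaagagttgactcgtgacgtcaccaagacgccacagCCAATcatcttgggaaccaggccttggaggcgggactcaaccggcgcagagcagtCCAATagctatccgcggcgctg
Of the mitosis genes that fell, 13 of 16 had a promoter in the table. Of these, 11 held CCAAT within the 250 bases before the start (84.6%), 4 held TTTGAA (30.8%) and 0 held the E2F letters. Of the replication genes that rose, 11 of 15 had one, of which 5 held the E2F letters (45.5%) and 9 held CCAAT (81.8%). Among all tested members with a promoter, called or not, 81.8% of 33 mitosis genes held CCAAT and 39.4% TTTGAA, and 29.0% of 31 replication genes held the E2F letters and 64.5% CCAAT. Over all 10216 tested genes with a promoter these shares were 40.9% for CCAAT, 12.9% for TTTGAA and 3.96% for the E2F letters. The matches describe letters and were given no test.

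Replication genes that rose included the polymerase and the helicase and its loader. Pola1, the catalytic subunit of DNA polymerase alpha, stood at 2.27, 1.66 and 1.66 TPM at P1 and at 4.43, 4.09, 3.26, 3.62 and 4.3 TPM at P7 (log2 change 0.85 ± 0.14, adjusted p = 0.00034). Cdc6, which loads the replicative helicase, stood at 1.04, 1.1 and 1.57 TPM at P1 and at 3.85, 2.54, 2.89, 2.87 and 3.8 TPM at P7 (log2 change 0.9 ± 0.16, adjusted p = 0.00061). Mcm2 stood at 13.2, 11.01 and 15.3 TPM at P1 and at 28.7, 24.1, 22.96, 24.5 and 27.6 TPM at P7 (log2 change 0.99 ± 0.19, adjusted p = 0.0011). Mcm4 stood at 8.87, 7.06 and 9.22 TPM at P1 and at 17.6, 13.9, 11.97, 14.6 and 15.1 TPM at P7 (log2 change 0.82 ± 0.16, adjusted p = 0.0016). Both are subunits of that helicase, and in all 4 genes the P7 libraries lay above the P1 libraries. Mcm3, Mcm5, Mcm6, Orc1, Orc6, Cdc45, Prim2, Pole and Pola2 also rose. Pcna, the sliding clamp, stood at 62.9, 60.2 and 83.5 TPM at P1 and at 104, 90.1, 79.2, 91.9 and 96.8 TPM at P7 (log2 change 0.47 ± 0.13, adjusted p = 0.014); its adjusted p was 0.052 without P1 library 1, 0.067 without P1 library 2 and 0.069 without P7 library 1. Mcm2 was at 2 to 3.49 TPM and Pcna at 22.8 to 30.5 TPM in the P21 libraries. The count of 15 was 7 without P1 library 2 or P7 library 1 and 9 without P1 library 1, and 4 with the letter-coded P7 libraries alone.

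Called genes of mitosis acted at entry, at the centromere, at the spindle and in cytokinesis. Cenpa, the histone of the centromere, stood at 134, 156 and 141 TPM at P1 and at 95.6, 72.5, 92.2, 93.3 and 75.1 TPM at P7 (log2 change -0.79 ± 0.12, adjusted p = 0.00019). Ccnb2, a cyclin of mitotic entry, stood at 61.9, 59.6 and 56.7 TPM at P1 and at 35.1, 25.5, 27.1, 29.7 and 26.5 TPM at P7 (log2 change -1.06 ± 0.2, adjusted p = 0.00097). Cdc25c, the phosphatase that activates its kinase, stood at 9.79, 10.04 and 8.67 TPM at P1 and at 6, 3.59, 4.16, 4.83 and 3.86 TPM at P7 (log2 change -0.89 ± 0.17, adjusted p = 0.0014); its adjusted p was 0.11 with a pseudocount of 0.1. Kif20a, a kinesin of cytokinesis, stood at 36.9, 35.7 and 26.8 TPM at P1 and at 23.4, 18.3, 14.2, 17.04 and 15.1 TPM at P7 (log2 change -0.72 ± 0.14, adjusted p = 0.0014). No P7 library reached the lowest P1 library in any of the 4. Cdc20, Ccnb1, Plk1, Aurka, Birc5, Ect2, Racgap1, Nusap1, Cenpe, Bub1b, Ccna2 and Ccnf fell too, and Smc2, a condensin that also acts in S phase, rose. At P21 Ccnb2 was at 0.41 to 1.01 TPM. The count of 16 was 10 without P1 library 2 or P7 library 3, 6 with the letter-coded P7 libraries alone, 29 with the numbered ones alone and 6 with a pseudocount of 0.1 and all libraries kept.

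Among 33 G1 cyclins, inhibitors and regulators 9 rose and 7 fell. Ccnd2 stood at 33.2, 27.6 and 23.4 TPM at P1 and at 59.9, 61.8, 45.3, 45.8 and 50.1 TPM at P7 (log2 change 1.03 ± 0.13, adjusted p = 4e-05). Ccnd1 stood at 37.2, 31.8 and 37.5 TPM at P1 and at 64.4, 48.8, 33.8, 59.5 and 52.8 TPM at P7 (log2 change 0.68 ± 0.23, adjusted p = 0.031); its adjusted p was 0.053 without P1 library 1, 0.1 without P1 library 2 and 0.11 without P7 library 1. Without the title style term the log2 change of Ccnd1 was 0.51, with adjusted p of 0.062 (8 libraries) and 0.069 (18 libraries). Of the D cyclins, which carry cells through G1, Ccnd3, named after its values were seen, changed by -0.51 ± 0.1 (SE) and fell. Cdk6, the kinase of the D cyclins, rose by 0.84 ± 0.14 (SE), with E2f1, E2f2, Ccne2, Rbl1 and Mycn also higher. Ccng1, a cyclin induced by p53, stood at 71.8, 64.9 and 69.3 TPM at P1 and at 138, 131, 150.2, 128 and 128 TPM at P7 (log2 change 0.99 ± 0.07, adjusted p = 2.9e-07). Cdkn1c, the imprinted inhibitor p57, which fell with Cdkn1b, Cdkn2d, Rbl2 and Myc, stood at 50.2, 67.1 and 61.9 TPM at P1 and at 24.5, 27.4, 19.6, 20.5 and 22.3 TPM at P7 (log2 change -1.26 ± 0.15, adjusted p = 2.4e-05). The number that rose was 5 without P1 library 2 or P7 library 1, and 5 rose and 7 fell in the libraries under 0.1 TPM of Ddx3y.

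Fetal growth genes fell together. Of 27 imprinted and oncofetal genes 17 fell and 2 rose, with a median of -0.53, and the summed level was 4407 to 5909.7 TPM at P1 and 2580.3 to 2903 TPM at P7. Igf2 stood at 1003, 973 and 800.3 TPM at P1 and at 361, 389, 371, 366 and 365 TPM at P7 (log2 change -1.24 ± 0.09, adjusted p = 3.3e-07). H19 stood at 1579.6, 1981 and 1266 TPM at P1 and at 405, 419, 366, 417 and 393 TPM at P7 (log2 change -1.86 ± 0.15, adjusted p = 1.1e-06). Igf2, a fetal growth factor, and H19, a long noncoding RNA, are reciprocally imprinted neighbours on chromosome 7 (chr7:142650766-142666816, minus strand and chr7:142575529-142578143, minus strand), and both fell. Dlk1, an imprinted membrane protein of fetal progenitors, stood at 74.2, 85.4 and 57.99 TPM at P1 and at 11.6, 12.2, 5.44, 9.34 and 8.77 TPM at P7 (log2 change -2.72 ± 0.21, adjusted p = 1.1e-06). At P21 Igf2 was at 39.7 to 50.5 TPM, H19 at 18.2 to 28.99 TPM and Dlk1 at 0.07 to 0.49 TPM. The RNA-binding proteins Igf2bp1, Igf2bp2 and Igf2bp3, with Plagl1, Grb10, Mest, Peg10, Nnat, Igf2r and Igf1r, fell too. The members that rose were Dcn and Igf1. Igf1, the postnatal growth factor, stood at 7.83, 6.2 and 6.29 TPM at P1 and at 10.9, 9.4, 7.41, 7.85 and 9.01 TPM at P7 (log2 change 0.58 ± 0.17, adjusted p = 0.021); its adjusted p was 0.071 without P1 library 2, 0.054 without P1 library 3 and 0.065 without P7 library 1. Without the title style term the log2 change of Igf1 was 0.35, with adjusted p of 0.082 (8 libraries) and 0.15 (18 libraries). The count of 2 that rose was 1 without P1 library 2 or P1 library 3 or P7 library 1.

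Cytosolic ribosomal protein genes fell almost without exception. Of 44 tested 42 fell and 1 rose, with a median of -0.5, and the summed level was 33533 to 39079 TPM at P1 and 25123 to 28339 TPM at P7. Rps15 stood at 1663, 1806 and 1916 TPM at P1 and at 1342, 1225, 1254, 1295 and 1276 TPM at P7 (log2 change -0.55 ± 0.07, adjusted p = 4.7e-05). Rpl4 stood at 706, 761 and 741 TPM at P1 and at 571, 523, 518, 539 and 528 TPM at P7 (log2 change -0.49 ± 0.06, adjusted p = 5e-05). Rps16 stood at 415, 454 and 467 TPM at P1 and at 333, 287, 306, 306 and 304 TPM at P7 (log2 change -0.58 ± 0.07, adjusted p = 5.2e-05). Rpl3 stood at 679, 722 and 744 TPM at P1 and at 568, 498, 457, 496 and 486 TPM at P7 (log2 change -0.46 ± 0.07, adjusted p = 0.00017). In each of the 42 that fell the P7 libraries lay below the P1 libraries. Rpl3l, a muscle-specific copy of Rpl3, was the member that rose. Rpl3l stood at 4.75, 4.12 and 9.18 TPM at P1 and at 14.4, 13.97, 36.8, 28.7 and 33.1 TPM at P7 (log2 change 1.36 ± 0.24, adjusted p = 0.00061). The numbered P7 libraries were higher than the letter-coded pair, and at P21 it was at 135 to 215 TPM. Ribosomal protein genes have many near-identical pseudogenes, and how reads shared with them were assigned was not given in the sources used here. With the letter-coded P7 libraries alone 10 of the 44 fell. Of 45 mitochondrial ribosome genes 9 fell and 2 rose, led by Mrps30 (log2 change -0.56 ± 0.09, adjusted p = 0.00029). The share called was 24.4%, against 30.1% of all genes. The number that fell was 4 without P1 library 3 and 5 without P7 library 3, and 4 under median-ratio scaling, and the number that rose was 0 without P1 library 1 or P1 library 2 or P7 library 1 or P7 library 77 and 1 without P7 library 3 or P7 library 72 and 0 under that scaling. Of 32 genes of insulin, PI3K and FOXO signalling 8 fell and 2 rose, a share called of 31.2% against 30.1% of all genes. Those that fell included Eif4ebp1, Sesn1, Trim63, Foxo3, Foxo4 and Ddit4. Eif4ebp1, a repressor of translation that mTOR switches off, stood at 164, 164 and 204 TPM at P1 and at 109.9, 97.5, 96.8, 102 and 89.5 TPM at P7 (log2 change -0.97 ± 0.15, adjusted p = 0.00029).

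Of 33 genes of thyroid, glucocorticoid and circadian response 6 rose and 6 fell, a share called of 36.4% against 30.1% of all genes. Nr3c1, Thrb, Bhlhe40 and Angptl4 were among those that rose, and Mt1, Mt2, Zbtb16, Fkbp5 and Per1 among those that fell. Mt1 stood at 372, 485 and 471 TPM at P1 and at 135, 139, 150.2, 153 and 140.1 TPM at P7 (log2 change -1.75 ± 0.24, adjusted p = 0.00011). Nr3c1, the glucocorticoid receptor, stood at 13.6, 11.6 and 11.2 TPM at P1 and at 24.4, 28.1, 17.8, 20.8 and 20.2 TPM at P7 (log2 change 0.99 ± 0.12, adjusted p = 2.7e-05). Thrb, a thyroid hormone receptor, under 2 TPM in all 8 libraries, stood at 0.4, 0.79 and 0.62 TPM at P1 and at 1.6, 1.34, 1.89, 1.95 and 1.9 TPM at P7 (log2 change 0.75 ± 0.15, adjusted p = 0.0014). The number that fell was 3 without P1 library 2 or P7 library 1. Of 29 hypoxia genes 11 fell and 5 rose. Besides Hif3a and Slc2a1, Egln2, Mxi1, Ndrg1, Bnip3 and Pgk1 fell. Vegfa, the growth factor of capillaries, stood at 181, 164 and 164 TPM at P1 and at 297, 278, 255, 259 and 272 TPM at P7 (log2 change 0.72 ± 0.08, adjusted p = 1.6e-05). It rose, with Epas1, Egln1, P4ha1 and Ndufa4l2. The number that rose was 3 without P1 library 1 or P1 library 2 or P7 library 1 or P7 library 3 or P7 library 77 and 8 without P1 library 3. Of 33 antioxidant genes 8 fell and 5 rose, a share called of 39.4% against 30.1% of all genes. In the libraries under 0.1 TPM of Ddx3y 5 antioxidant genes fell and 6 rose. Gstm1, a glutathione transferase, stood at 68.7, 105 and 89.5 TPM at P1 and at 25.2, 25.1, 27.4, 31.6 and 28.8 TPM at P7 (log2 change -1.69 ± 0.13, adjusted p = 7.3e-07). Ucp2, a mitochondrial carrier, stood at 78.6, 60 and 133 TPM at P1 and at 163, 189, 186, 189 and 214 TPM at P7 (log2 change 1.2 ± 0.21, adjusted p = 0.00073). Gstm1 was back at 83.9 to 106 TPM at P21.

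Oxygen and energy buffers rose in part. Of 18 genes tested 5 rose and 5 fell. Mb, myoglobin, stood at 3459, 2828 and 5058 TPM at P1 and at 6621, 6747, 7371, 7183 and 7166 TPM at P7 (log2 change 0.88 ± 0.14, adjusted p = 0.00026). Ckmt2, the creatine kinase of muscle mitochondria, stood at 235, 182 and 349.6 TPM at P1 and at 523, 523, 709, 599.7 and 636 TPM at P7 (log2 change 1.18 ± 0.16, adjusted p = 0.00011). Cygb, cytoglobin of fibroblasts, stood at 17.01, 15.02 and 21.4 TPM at P1 and at 35.5, 33.6, 31.6, 34.6 and 36.3 TPM at P7 (log2 change 0.92 ± 0.1, adjusted p = 2.1e-05). P1 library 3 was the highest P1 library in the 3 genes, and without it Mb changed by 1.11 (adjusted p = 1.1e-07) and Ckmt2 by 1.43 (adjusted p = 9.6e-07). The cytosolic creatine kinases fell: Ckb stood at 183, 197 and 203 TPM at P1 and at 122, 93.7, 142, 119 and 132 TPM at P7 (log2 change -0.7 ± 0.17, adjusted p = 0.0051). Ckm stood at 1938, 2000.3 and 2505 TPM at P1 and at 1395, 1400.1, 1666, 1682 and 1684 TPM at P7 (log2 change -0.56 ± 0.09, adjusted p = 0.00022).

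Of 33 genes of calcium handling 10 rose and 5 fell, with a median of 0.18. In the libraries under 0.1 TPM of Ddx3y the direction of the count turned, with 4 higher and 6 lower, and with the letter-coded P7 libraries alone 3 rose and 2 fell. Hrc stood at 84.4, 69.8 and 117 TPM at P1 and at 162, 171, 189.5, 164 and 175 TPM at P7 (log2 change 0.95 ± 0.14, adjusted p = 0.00016). Trdn stood at 81.5, 74.5 and 79.7 TPM at P1 and at 112, 124, 105, 101.1 and 102 TPM at P7 (log2 change 0.52 ± 0.08, adjusted p = 0.00016). Hrc, a calcium-binding protein of the sarcoplasmic reticulum, and triadin, which anchors it to the release channel, were above every P1 library in each P7 library. The pump Atp2a2 did not pass (log2 change 0.21 ± 0.11, adjusted p = 0.16), nor did its inhibitor Pln (log2 change -0.09 ± 0.11, adjusted p = 0.58). Casq1, the skeletal calsequestrin, stood at 34.6, 76.7 and 43.5 TPM at P1 and at 17.8, 10.99, 25.6, 16.5 and 18.3 TPM at P7 (log2 change -1.72 ± 0.31, adjusted p = 0.00069). Ppp1r1a, an inhibitor of protein phosphatase 1, stood at 17.6, 17.5 and 12.4 TPM at P1 and at 5.36, 6.16, 5, 6.7 and 6.05 TPM at P7 (log2 change -1.35 ± 0.17, adjusted p = 5.9e-05). The number of calcium genes that fell was 3 without P1 library 1 or P1 library 2 or P7 library 3 or P7 library 76. Of 27 sodium, potassium and pacemaker channel genes 11 rose and 1 (Kcnq1) fell. Hcn2, a pacemaker channel, stood at 1.59, 1.34 and 3.62 TPM at P1 and at 5.46, 5.94, 10.8, 8.78 and 10.7 TPM at P7 (log2 change 1.29 ± 0.21, adjusted p = 0.00033). Kcnj2, an inward rectifier that sets the resting potential, stood at 7.13, 3.66 and 4.75 TPM at P1 and at 10.7, 9.79, 8.88, 7.97 and 8.19 TPM at P7 (log2 change 0.88 ± 0.28, adjusted p = 0.027); its adjusted p was 0.11 without P1 library 2, 0.06 without P1 library 3, 0.081 without P7 library 1 and 0.063 without P7 library 3.

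At the junctions between muscle cells 7 of 24 genes fell and 3 rose. Lrrc10, a heart-specific actin-binding protein, stood at 147, 208 and 200.3 TPM at P1 and at 64.2, 80.9, 60.6, 65.97 and 62.7 TPM at P7 (log2 change -1.5 ± 0.15, adjusted p = 9.4e-06). Popdc3 stood at 35.2, 45.6 and 31.3 TPM at P1 and at 18.2, 15.7, 15.8, 15.9 and 18.3 TPM at P7 (log2 change -1.17 ± 0.14, adjusted p = 3.6e-05). Bves stood at 72.03, 78.8 and 51.3 TPM at P1 and at 39.03, 34.9, 34.9, 34.1 and 36.4 TPM at P7 (log2 change -0.87 ± 0.12, adjusted p = 9.7e-05). Both belong to the Popeye family of cyclic AMP binding membrane proteins, and Popdc2 fell with them. Pkp2, a desmosome protein, stood at 126, 128 and 96.5 TPM at P1 and at 72.7, 77.6, 66.7, 69.5 and 71.3 TPM at P7 (log2 change -0.7 ± 0.1, adjusted p = 0.00016). Of 29 adrenergic and angiotensin genes 7 rose and 4 fell, a share called of 37.9% against 30.1% of all genes. Adra1b, an alpha-1 receptor, stood at 12.3, 8.59 and 9.84 TPM at P1 and at 18.2, 26.2, 16.5, 21.1 and 20.1 TPM at P7 (log2 change 1.06 ± 0.16, adjusted p = 0.00023). Adcy6, the main adenylyl cyclase of the heart, stood at 116, 130.3 and 102 TPM at P1 and at 73.01, 74.5, 62.3, 67.5 and 62.98 TPM at P7 (log2 change -0.72 ± 0.1, adjusted p = 0.00011). The number of the 29 that fell was 7 without P1 library 3.

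Endothelial markers rose more often than they fell, and markers of mural cells, fibroblasts and macrophages were called in both directions; the part that cell numbers had in this was not tested. Of 14 endothelial markers 9 rose and 1 fell, with a median of 0.44, and the summed level was 1548 to 1919 TPM at P1 and 2124 to 2425 TPM at P7. Flt1, a receptor for VEGF, stood at 12.4, 13.5 and 10.5 TPM at P1 and at 18.3, 19.3, 18.6, 16.9 and 17.3 TPM at P7 (log2 change 0.56 ± 0.11, adjusted p = 0.0013). Fabp4, a lipid carrier of capillaries, stood at 755, 764 and 1063 TPM at P1 and at 1208, 1213, 1174, 1356 and 1229 TPM at P7 (log2 change 0.54 ± 0.11, adjusted p = 0.0016). Pecam1, an adhesion protein of endothelium, stood at 91.6, 94.5 and 89.3 TPM at P1 and at 114, 118, 109, 119 and 117 TPM at P7 (log2 change 0.34 ± 0.07, adjusted p = 0.0019). Vwf, a marker of larger vessels, was the one that fell; it stood at 28.1, 32.7 and 34.03 TPM at P1 and at 18.2, 16.9, 17.1, 23.9 and 21.2 TPM at P7 (log2 change -0.79 ± 0.16, adjusted p = 0.002). Of 12 mural markers 5 rose and 3 fell. Rgs5, of pericytes, stood at 96.5, 75.3 and 143 TPM at P1 and at 278, 295, 171, 218 and 219 TPM at P7 (log2 change 1.46 ± 0.16, adjusted p = 1.7e-05). Vtn, vitronectin, stood at 2.09, 1.75 and 8.25 TPM at P1 and at 15.1, 15.04, 9.43, 11.1 and 11.2 TPM at P7 (log2 change 1.86 ± 0.34, adjusted p = 0.00086). Cnn1, calponin of smooth muscle, stood at 22.3, 34.8 and 15.3 TPM at P1 and at 5.63, 3.06, 4.97, 5.07 and 8.8 TPM at P7 (log2 change -1.93 ± 0.37, adjusted p = 0.0012). The number of mural markers that fell was 1 without P1 library 2 or P1 library 3 or P7 library 3.

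Of 14 fibroblast markers 6 rose and 2 fell. Pi16, a marker of adventitial fibroblasts, stood at 3.17, 2.93 and 6.85 TPM at P1 and at 18.7, 16.3, 17.4, 16.02 and 19.03 TPM at P7 (log2 change 1.86 ± 0.19, adjusted p = 9.4e-06). Dpt, dermatopontin, stood at 73.6, 81.98 and 87.4 TPM at P1 and at 162, 138, 111, 134 and 146 TPM at P7 (log2 change 0.86 ± 0.13, adjusted p = 0.00025). Gsn, gelsolin, stood at 200.3, 217 and 168 TPM at P1 and at 110.1, 101.5, 81.4, 107 and 110.1 TPM at P7 (log2 change -0.87 ± 0.14, adjusted p = 0.00028). It fell, and the P21 libraries held 334 to 478 TPM. Of 48 genes of the interstitial matrix 14 rose and 5 fell, a share called of 39.6% against 30.1% of all genes. Dcn stood at 180.4, 177 and 184 TPM at P1 and at 355, 315, 239.99, 298 and 314 TPM at P7 (log2 change 0.83 ± 0.1, adjusted p = 4.2e-05). Ogn stood at 31.4, 27.7 and 27.1 TPM at P1 and at 62.5, 59.2, 34.4, 44.8 and 45.9 TPM at P7 (log2 change 0.95 ± 0.13, adjusted p = 0.00011). Lum stood at 44.2, 38.9 and 39.2 TPM at P1 and at 90.1, 77.6, 60.6, 72.5 and 76.3 TPM at P7 (log2 change 1.03 ± 0.17, adjusted p = 0.00034). They encode small leucine-rich proteoglycans that bind collagen, and in all 3 library 72 was the lowest of P7 and still above P1. Col3a1, a fibrillar collagen, stood at 477, 507 and 522 TPM at P1 and at 759, 681, 529, 653 and 721 TPM at P7 (log2 change 0.5 ± 0.14, adjusted p = 0.015); its adjusted p was 0.064 without P7 library 1. Of 23 genes of the basement membrane and its receptors 11 rose and 2 fell, and the number that rose was 5 without P1 library 3 and 7 without P7 library 1; in the libraries under 0.1 TPM of Ddx3y 3 rose and 4 fell. Itga7, the laminin receptor of muscle, stood at 17.2, 14.7 and 30.1 TPM at P1 and at 42.3, 48.2, 44.8, 44.8 and 43.6 TPM at P7 (log2 change 1.17 ± 0.19, adjusted p = 0.00031). Sgcb, a sarcoglycan, stood at 25.5, 25.3 and 26.3 TPM at P1 and at 38.1, 35.5, 35.1, 35.2 and 35.5 TPM at P7 (log2 change 0.49 ± 0.08, adjusted p = 0.00028). Col4a1 stood at 312, 342 and 255 TPM at P1 and at 394, 379, 451, 431 and 453 TPM at P7 (log2 change 0.42 ± 0.13, adjusted p = 0.022); its adjusted p was 0.088 without P1 library 3. The number of basement membrane genes that fell was 1 without P1 library 1 or P1 library 2 or P7 library 1 or P7 library 3 and 4 without P1 library 3.

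Of 12 macrophage markers 5 rose and 1 fell, and the number that rose was 3 without P1 library 2 or P1 library 3 or P7 library 1 or P7 library 3 or P7 library 76 or P7 library 77. Lyz2, lysozyme, stood at 16.9, 17.7 and 17.9 TPM at P1 and at 34.5, 31.1, 25.1, 30.8 and 28.2 TPM at P7 (log2 change 0.75 ± 0.13, adjusted p = 0.00069). Adgre1, the F4/80 antigen, stood at 1.9, 1.25 and 1.31 TPM at P1 and at 3.71, 3.22, 2.8, 4.31 and 3.41 TPM at P7 (log2 change 0.78 ± 0.18, adjusted p = 0.0043). Csf1r stood at 7.59, 6.77 and 5.66 TPM at P1 and at 9.93, 19.4, 8.15, 9.23 and 9.3 TPM at P7 (log2 change 0.79 ± 0.21, adjusted p = 0.01); its adjusted p was 0.055 without P7 library 3. Lyve1, of resident macrophages and lymphatic vessels, was the one that fell; it stood at 8.92, 12.1 and 6.74 TPM at P1 and at 3.97, 4.12, 4.96, 4.04 and 4.07 TPM at P7 (log2 change -0.94 ± 0.2, adjusted p = 0.0029). Markers of cells that should be absent were low. The summed levels of 6 liver markers were 0.78 to 1.34 TPM at P1 and 0.69 to 2.12 TPM at P7. Those of 6 thymus markers were 0.12 to 0.32 TPM at P1 and 0.31 to 1.59 TPM at P7. Those of 5 lung markers were 2.76 to 5.68 TPM at P1 and 1.17 to 2.4 TPM at P7. Of the lung markers only Ager was tested, and it fell (log2 change -0.85). Of 5 tested skeletal muscle markers all fell, among them Ckm, and their summed level, set mainly by Ckm, was 1988 to 2549.7 TPM at P1 and 1419 to 1711 TPM at P7; the number was 3 without P1 library 2. Of the 12 cardiomyocyte markers 1 rose and 3 fell, and their summed level was 57948 to 64951 TPM at P1 and 56943 to 62798 TPM at P7, so the defining genes of the tissue were present at high level in every library.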

How the data were processed

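Per the labels' protocols, RNA of mouse hearts was isolated with RNA iso Plus and made into libraries with a SMARTER mRNA-Seq kit. Per the submitters' processing notes, TopHat2 2.0.14, Cufflinks 2.2.1 and mm10 were used; what turned them into the TPM values deposited by the authors, and on which gene models, is not given in the sources used here. TPM hold no depth, so no count test was run. The table's 2 columns of no sample in the series were not used. Of 19 libraries 18 were fitted, since the genotype label and title of P21 library 63 disagree. Values were log2(TPM + 1), genes needed 1 TPM in 3 of the 8 libraries, and limma 3.58.1 (R 4.3.3; lmFit, eBayes with trend) was fitted with group and title style, with Benjamini-Hochberg adjustment over 14047 genes and a threshold of 0.05. On simulated data, 147 of 14047 genes were called, 3 of them false, with 91% of 2-fold and 53% of 1.4-fold changes recovered among 200. The simulated noise was independent between libraries, with no effect of title style, sex or a mixed library, and genes of low level were not changed. It therefore does not give the error rate of the real comparison. Named genes were the 12 largest changes a direction (10 TPM, no overlap, 1 direction in every model), up to 4 members a list by smallest p with the most abundant, and fixed isoform pairs; others with values are said to be named later. Names without values are called members. Members and lists were chosen with earlier results of these data known. Sex was no term of the model. Coordinates are from GENCODE M21 (GRCm38, as mm10), which held 13748 of the 14047 identifiers. Some genes that the rule names are left out for length, and some are not reported here.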

Additional observations from a re-analysis of the deposited data

Results flagged for a closer look

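Among the 172 genes with values in the text, 12 had a P7 library that stood apart from the other 4 by Dixon's test at its 95% critical value of 0.71; chance flags about 1 in 20 groups. P7 library 3 was the library apart in 5 of them: Ldha at 677.7 TPM and Pfkl at 52.0 TPM were below the other libraries, and Aldh6a1 at 28.5, Lrrc10 at 80.9 and Csf1r at 19.4 TPM above them. P7 library 72 was apart in 4, with Trim72 at 90.4 and Lyve1 at 4.96 TPM above the others and Atpif1 at 534.2 and Map1lc3b at 71.6 TPM below. P7 library 1 was highest in Sgcb, at 38.1 TPM, and Tnnt1, at 62.0 TPM. Bmp10 was at 1.16 TPM in P7 library 77 and at 0.13 TPM or less in the other 4; the same library was the highest of P7 in Myl7 and Myl4. Cox7a2l differed between the title styles within P7, with the letter-coded libraries higher by 1.21 on the log2 scale (limma, adjusted p = 0.018) and at 292.9 and 275.2 TPM against 120.1, 125.7 and 121.1 TPM. No cause of these values was tested.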

How the results depend on the processing

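Leaving out 1 library at a time gave 3154 to 4311 calls, 1429 to 2058 higher and 1537 to 2530 lower. Against 4225 calls, 2797 genes were called with the 8 libraries alone and age and title style as terms (1285 lower) and 1327 with the letter-coded P7 libraries alone against P1 (695 higher, 632 lower). The numbered P7 libraries alone gave 1261 higher genes, and the libraries under 0.1 TPM of Ddx3y, an alternative chosen after seeing the data, 1185 higher. A 2-fold threshold left 501 calls (235 higher, 266 lower). With the replicate block, which ties P1 and P7 libraries of the same number, 382 genes were called (185 higher, 197 lower). Deviations from the group mean had r = -0.0855 and -0.0932 between same-numbered libraries. With 2 letter-coded P7 libraries their deviations are mirror images, so this check cannot tell whether the numbers pair libraries. All other alternatives stayed within 1.5 times the counts. Of 153 called genes with values in the text 138 kept their call with each library left out, and no called one changed direction under any of the 23 alternatives. With the letter-coded P7 libraries alone 44 of them lost their call, with the numbered ones alone 17 and with the replicate block 101. TPM hold no depth, so limits set by depth could not be given.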

Other observations

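Of 34 cardiac transcription factors tested 8 fell and 4 rose, with a median of -0.17. The share called was 35.3%, against 30.1% of all genes. Gata6 stood at 106, 126 and 77.3 TPM at P1 and at 40.5, 55.1, 52.6, 48.5 and 50.01 TPM at P7 (log2 change -1.08 ± 0.16, adjusted p = 0.00018). Nkx2-5 stood at 90.5, 85.8 and 91.8 TPM at P1 and at 55.8, 65.6, 74.9, 73.4 and 74.7 TPM at P7 (log2 change -0.55 ± 0.07, adjusted p = 3.6e-05). Hand1, Hand2, Irx4, Tbx2 and Foxc1 fell too, whereas Heyl, Hey1, Nr2f1 and Mef2c rose. Heyl, a Notch target of vascular smooth muscle, stood at 8.67, 8.38 and 8.19 TPM at P1 and at 17, 16.4, 16.6, 16.9 and 17.4 TPM at P7 (log2 change 0.94 ± 0.1, adjusted p = 1e-05). Without P1 library 3 13 factors fell, and the number that rose was 2 without P7 library 3. Among regulators of splicing 7 of 28 rose, with 4 without P1 library 3 or P7 library 1, and 5 fell, with 1 without P1 library 2, 3 without P1 library 1 or P7 library 1 and 8 without P1 library 3; in the libraries under 0.1 TPM of Ddx3y 2 rose and 5 fell. Rbfox1, a splicing factor of mature heart and neurons, stood at 7, 5.71 and 4.27 TPM at P1 and at 8.33, 12.3, 11.8, 10.1 and 11.9 TPM at P7 (log2 change 0.83 ± 0.17, adjusted p = 0.0021). Hnrnpa1 stood at 434, 463 and 381 TPM at P1 and at 269.8, 249, 213, 225 and 229 TPM at P7 (log2 change -0.83 ± 0.1, adjusted p = 4.3e-05).

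Of 28 genes of lipid synthesis 6 fell and 2 rose, a share called of 28.6% against 30.1% of all genes. Those that fell included Fasn (log2 change -0.6 ± 0.12, adjusted p = 0.0019) and Srebf2 (log2 change -0.63 ± 0.13, adjusted p = 0.0027), and Acacb, the muscle acetyl-CoA carboxylase whose product inhibits Cpt1, rose (log2 change 0.48 ± 0.12, adjusted p = 0.0085). Of 30 interferon and antigen presentation genes 8 fell and 2 rose (33.3% called), and 4 fell in the libraries under 0.1 TPM of Ddx3y and 5 without P1 library 1. Ifit3 stood at 4.33, 2.99 and 3.8 TPM at P1 and at 1.21, 1.17, 1.33, 1.31 and 1.06 TPM at P7 (log2 change -1.21 ± 0.24, adjusted p = 0.0016). Isg15 stood at 13.8, 6.2 and 12.6 TPM at P1 and at 4.46, 4.37, 4.29, 3.22 and 3.56 TPM at P7 (log2 change -1.14 ± 0.25, adjusted p = 0.0031). H2-Aa, a class II antigen presentation gene, stood at 0.27, 0.65 and 0.65 TPM at P1 and at 2.23, 3.2, 1.34, 2.57 and 1.44 TPM at P7 (log2 change 1.15 ± 0.27, adjusted p = 0.0044). It rose with Cd74 and was at 8.67 to 18.1 TPM at P21. Aldh1a2, the retinoic acid enzyme of the epicardium, stood at 15.6, 9.03 and 14.7 TPM at P1 and at 33.2, 31.6, 23.7, 28.97 and 27.2 TPM at P7 (log2 change 1.19 ± 0.2, adjusted p = 0.00044). It rose, while of the other epicardial markers Krt19 and Muc16 fell. Cidea, a lipid droplet protein listed with the adipocyte markers, rose (log2 change 0.91 ± 0.16, adjusted p = 0.00076).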
